A study of Ovis aries with 12 samples.

Results

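The 9 genes described here encode the motor of smooth muscle and proteins that switch it on and off: the myosin heavy chain MYH11, its light chains MYL9 and MYL6, the light chain kinase MYLK, the phosphatase targeting subunits PPP1R12A and PPP1R12B, the phosphatase inhibitor PPP1R14A, and the RHOA-activated kinases ROCK1 and ROCK2. They were taken by symbol from a table of 21257 genes, and all 9 were found, each as a single entry under its own symbol. Levels are in FPKM, fragments per kilobase of gene length scaled to the reads of the library. All 9 were among the 12095 genes tested, those reaching 1 FPKM in 3 or more libraries.

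RNA was sequenced from 12 libraries of Tan sheep (Ovis aries) aged 5 months, 3 for each of 4 diets: a basal diet, and the same basal diet containing 0.5%, 1% or 2% succinate, an acid of the tricarboxylic acid cycle. The feeding trial held 9 animals per diet, and the sources used here do not tie each library to its own animal, so the tests measure the spread between these samples, which may be partly technical. No label gives the tissue, although the title of the series refers to the rumen epithelium. The markers did not match an epithelium: the 8 markers of stratified epithelium summed to at most 0.26 FPKM in any library, with KRT5, KRT4, KRT15, TP63 and IVL at 0 reads in all 12, whereas the 12 smooth muscle markers outside the 9 genes were all present and summed to 24970 to 48550 FPKM. The 7 markers of mural cells of vessels summed to 222 to 348 FPKM, those of fibroblasts to 980 to 2187 FPKM and those of endothelium to 42.7 to 104 FPKM. Adipocyte markers varied widely, from 1.03 to 296 FPKM, and were highest in replicate 3 of the basal diet and replicate 1 of the 2% diet. Those of enteric neurons summed to 1.64 to 40.8 FPKM. All 6 macrophage markers were present, and their sum was 38.2 to 92.9 FPKM in the 9 succinate libraries against 104.6 to 171 FPKM in the 3 basal libraries, without overlap. At each dose 4 of the 6, AIF1, C1QA, C1QB and C1QC, were lower than in the basal diet without overlap. Of all genes, 12.1%, 17.8% and 14.2% did not overlap, in either direction, at 0.5%, 1% and 2%. CD68 and CSF1R overlapped with the basal diet at every dose. The part of these cell types in the comparisons with the basal diet was not tested.

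In smooth muscle, force is made by myosin filaments pulling on actin, and the switch lies on the myosin itself rather than on the thin filament. Calcium bound to calmodulin activates the kinase encoded by MYLK, which phosphorylates the regulatory light chain, and this lets the myosin head cycle. A phosphatase built from a PP1 catalytic subunit and a targeting subunit such as the PPP1R12A product removes the phosphate. RHOA acting through ROCK1 and ROCK2 inhibits this phosphatase, as does the PPP1R14A product (CPI-17) once it is phosphorylated, so that the muscle can hold tension at a lower calcium level. In the wall of the gut and forestomachs this system drives mixing and emptying.

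The motor genes were among the most abundant of all. Averaged over the 12 libraries, MYL6 ranked 4th of 21257 genes at 8150 ± 1799 FPKM, MYL9 ranked 5th at 7783 ± 1591 FPKM and MYH11 ranked 16th at 3092 ± 868 FPKM (SD, n = 12 each). MYLK followed at 1236 ± 200 FPKM. The targeting subunits lay far lower, PPP1R12A at 113 ± 22.8 FPKM and PPP1R12B at 72.2 ± 17.7 FPKM, and the ROCK kinases lower again, ROCK1 at 27.4 ± 5.37 FPKM and ROCK2 at 15.5 ± 2.87 FPKM. PPP1R14A stood at 2.08 ± 1.39 FPKM. FPKM is scaled to gene length, but a dependence on length that differed between libraries remained, so ratios between short and long genes vary with the library. The order was the same in all 12 libraries except between 2 pairs of neighbours: MYL6 was above MYL9 in 8 of 12 libraries, with a mean ratio of 1.06 ± 0.23, and PPP1R12A was above PPP1R12B in 10 of 12, with a mean ratio of 1.68 ± 0.63. Together the 9 genes took 3.96% to 6.14% of all reads assigned to genes.

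MYH11, which encodes the smooth muscle heavy chain, lies on chromosome 24 from 14622730 to 14749438 in the coordinates of the file, whose genome build is not given in the sources used here. MYL9, for the regulatory light chain that carries the phosphorylation site, lies on chromosome 13 from 65630292 to 65638579. MYL6, for the essential light chain that smooth and non-muscle myosin share, lies on chromosome 3 from 163379172 to 163382279. MYLK spans chromosome 1 from 188839645 to 189119702. This gene is also known to encode telokin, a short protein made from an internal promoter, and a value per gene does not separate these products. PPP1R12A and ROCK2 lie on chromosome 3, PPP1R12B on chromosome 12, PPP1R14A on chromosome 14 and ROCK1 on chromosome 23. PPP1R12B overlaps SYT2 on the other strand, and SYT2 averaged 0.248 FPKM. No other member overlapped a gene of the file.

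Other genes of the pathway, among them alternative isoforms, were measured on the same scale, while MYL12A and MYL12B, for the non-muscle regulatory light chains, were not analysed here. MYH11 was 158 ± 23.5 times as high per length as MYH9 and 385 ± 110 times as high as MYH10, the heavy chains of non-muscle myosin (n = 12 libraries each). The light chain gene MYL6B averaged 1.46 FPKM. Of 12 striated muscle myosin genes in the file, 3 reached the minimum for testing, and the highest, MYH2 of fast skeletal fibres, averaged 4.28 FPKM with 1 library at 39.0 FPKM, followed by MYLPF at 1.63 FPKM and MYH1 at 1.495 FPKM. CALM2 and CALM3, which encode calmodulin, were at 710 ± 135 and 77.0 ± 12.01 FPKM, and the kinase gene ILK at 66.6 ± 9.07 FPKM. CALM2 stayed below MYLK in all 12 libraries. Of the PP1 catalytic subunits, PPP1CB, the form that joins the myosin phosphatase, was at 163 ± 34.7 FPKM, 4.82 ± 1.37 times PPP1CA. PPP1CC was at 122 ± 23.8 FPKM and PPP1R12C, a further targeting subunit, at 64.6 ± 6.84 FPKM. The summed level of PPP1R12A and PPP1R12B was 1.19 ± 0.35 times that of PPP1CB. RHOA, upstream of ROCK1 and ROCK2, was at 193 ± 24.9 FPKM and 7.26 ± 1.51 times ROCK1. Its relative RHOB was at 89.9 ± 6.82 FPKM and ARHGEF25, an exchange factor for RHOA, at 62.6 ± 7.14 FPKM.

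**Figure D1:**
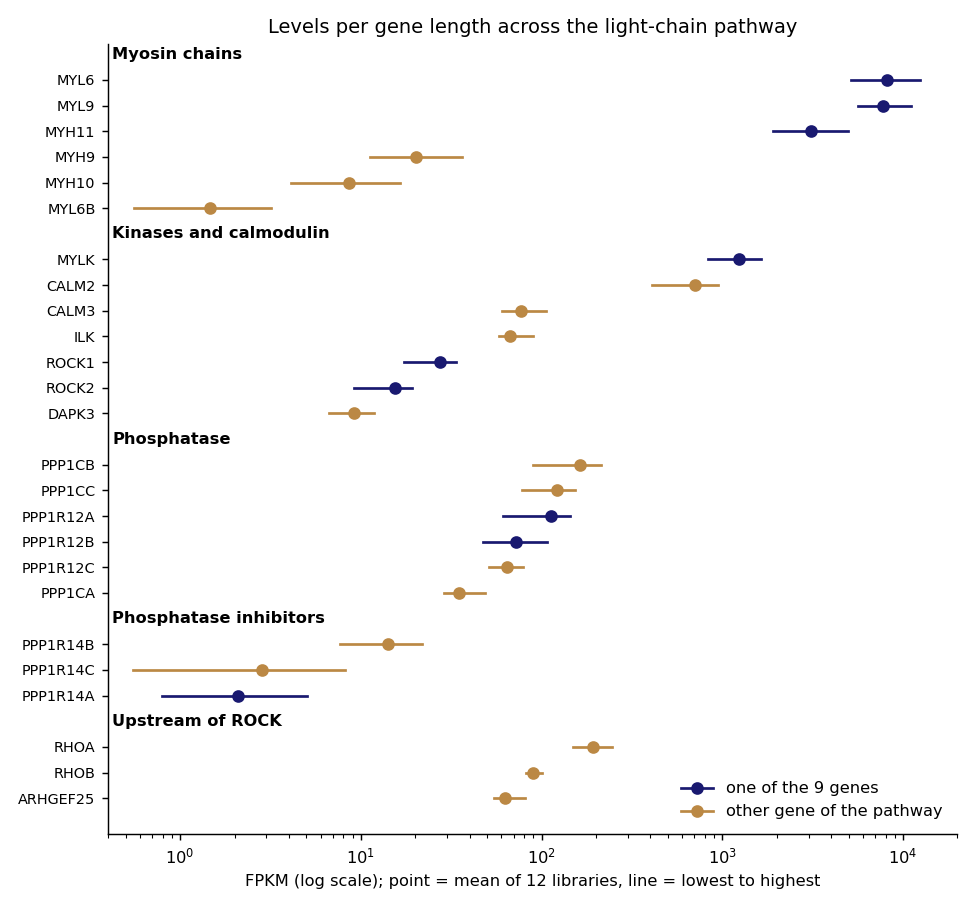
Level of each gene in FPKM on a log scale, with the point at the mean of 12 libraries and the line running from the lowest to the highest library; dark points are the 9 genes and light points other genes of the pathway. MYL6, MYL9 and MYH11 lie above all other genes shown in every library, and PPP1R14A lies below PPP1R14B and PPP1R14C on average.

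PPP1R14A was the exception to the abundance of the group. It was counted with 8 to 49 reads per library, where every other member had at least 1286, so its values carry a large counting error. A count of 0 would allow up to 3 reads, and all 12 libraries were above that. Its relatives of the same inhibitor family were PPP1R14B, at 14.1 ± 4.57 FPKM and above PPP1R14A in all 12 libraries, and PPP1R14C, at 2.84 ± 2.36 FPKM and above it in 8 of 12. PPP1R14D had 0 reads in all 12 libraries.

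Across the diets, the levels of the 9 genes were compared with limma on log2(FPKM + 1) over all 12095 genes tested, two-sided, with Benjamini-Hochberg adjustment and a threshold of 0.05. None of the 27 differences from the basal diet passed, with adjusted p from 0.238 to 0.999, and in each comparison the background was 0% of all genes. At an unadjusted p under 0.05 there were 1 of 9 members at 0.5% succinate (4.65% of all genes), 1 at 1% (19.4%) and 0 at 2% (3.17%), and limma-voom on recovered reads gave the same counts, with 0 members after adjustment. The 95% confidence intervals of the 27 log2 differences reached down to -0.96, for MYL6 at 1%, and up to 1.68, for PPP1R14A at 1%. Those of MYLK lay between -0.50 and 0.65. For each gene, changes within its own interval were not resolved by 3 libraries per diet. A test of any difference among the 4 diets gave unadjusted p from 0.0542 to 0.978 and a linear slope on succinate percent gave 0.0793 to 0.724. No member passed either test after adjustment (0% of all genes for both). The unadjusted background was 12.6% of all genes for the first test and 3.21% for the second. Only for the test of any difference did limma-voom put a member, 1 of 9, at an unadjusted p under 0.05.

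**Figure D2:**
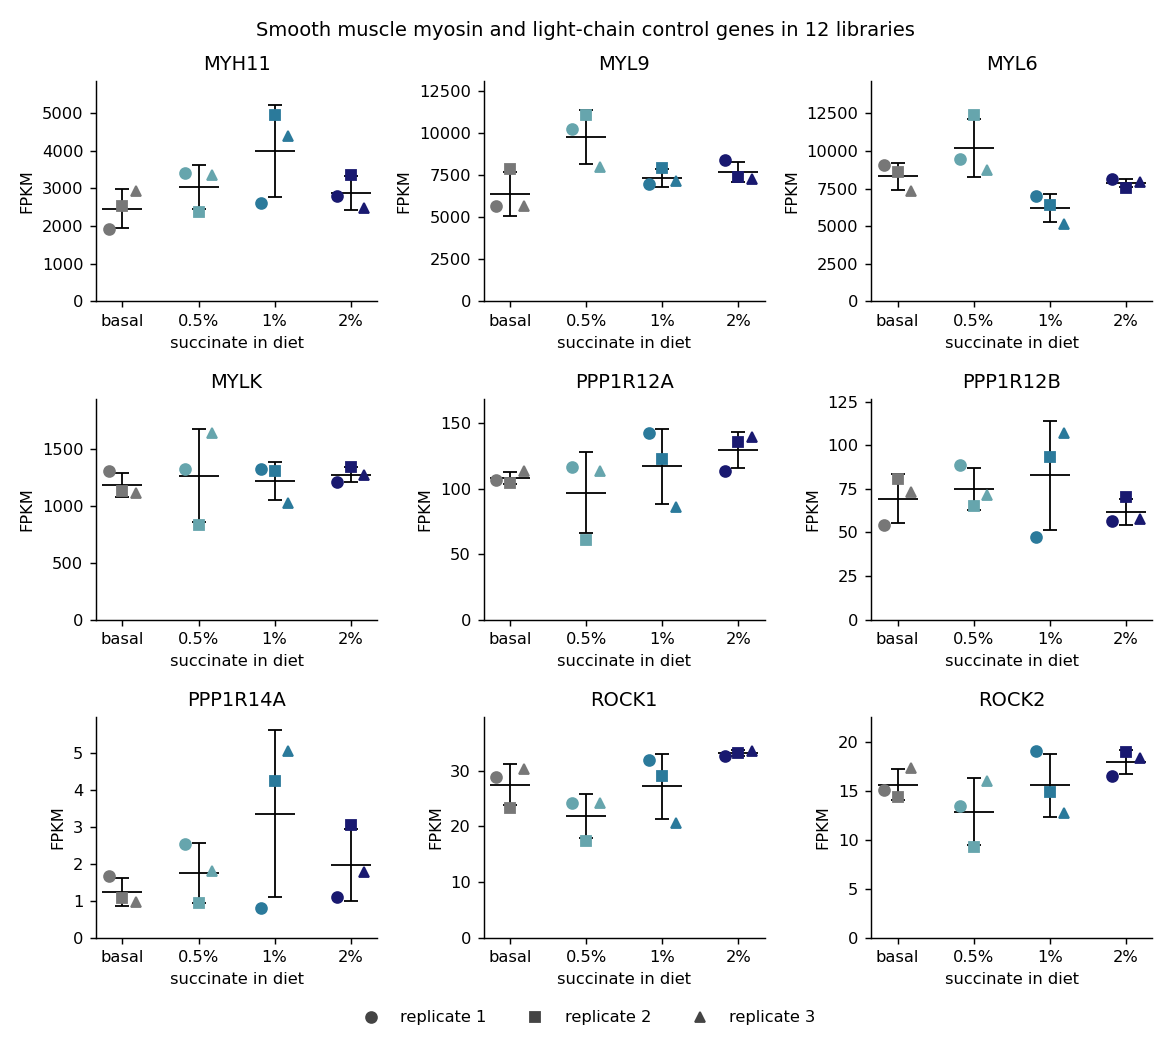
FPKM of each gene in each library (points, shape by replicate number) against the diet, with the mean and SD of 3 libraries in black; axes start at 0. MYL9 is highest at 0.5% succinate, MYL6 lowest at 1%, and ROCK1 most uniform at 2%, while replicates 2 and 3 at 1% carry the highest MYH11, PPP1R12B and PPP1R14A values.

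Several libraries differed in how their values depended on gene length, and this touches several members. In replicates 2 and 3 of the 1% diet, long genes were higher relative to short ones: the Spearman correlation across genes between a gene's deviation from its mean and its length was 0.58 and 0.43. The opposite slope was strongest in replicate 2 of the 0.5% diet, at -0.63, and was also found in replicates 1 and 2 of the basal diet, at -0.31 and -0.37. For the 7 remaining libraries the range was -0.16 to 0.28. MYH11, MYLK, PPP1R12A, PPP1R12B, ROCK1 and ROCK2 are long, between 5674 and 13261 bases, at or above the percentile of 79.7 among tested genes. MYL9 at 1223 bases, MYL6 at 702 and PPP1R14A at 580 are short, at the percentile of 12.6 or below. Libraries held 15489883 to 18717309 reads assigned to genes.

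Among the motor genes, the regulatory light chain MYL9 had 5635, 7864 and 5634 FPKM in the basal diet, 10201, 11070.4 and 7989 FPKM at 0.5% succinate, 6937, 7926 and 7133 FPKM at 1%, and 8359, 7376 and 7272 FPKM at 2%. The lowest 0.5% library was above the highest basal library, by a narrow margin, and 2 of the 3 libraries at 0.5% were above every library of the other diets. The mean was 9753 ± 1589 FPKM at 0.5% succinate against 6378 ± 1287 FPKM in the basal diet (SD, n = 3 each). The log2 difference was 0.62 (SE 0.24, 95% interval 0.09 to 1.14), with an unadjusted p of 0.0247 and an adjusted p of 0.883 by limma. MYL9 was the only one of the 9 genes whose 0.5% and basal libraries did not overlap, where 12.1% of all genes did not and 1.76% of all genes did so with 0.5% higher. With quantile normalization the difference was 0.26. The median log2 difference of all genes at this dose was -0.115, and with median-ratio scaling, which takes this shift away, that of MYL9 was 0.75.

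The summed level of the 12 smooth muscle markers outside the 9 genes was 35710 to 48550 FPKM in the 0.5% libraries and 26350 to 29150 FPKM in the basal libraries. Of these markers, 9 had a positive log2 difference, 5 were higher without overlap (1.76% of all genes), 4 had an unadjusted p under 0.05 (4.65% of all genes) and 0 passed after adjustment by limma. The desmin gene DES, TAGLN, ACTG2, CNN1 and TPM2 were the 5 without overlap. SYNPO2, at a mean of 224 FPKM in the 0.5% diet against 259 FPKM in the basal diet, MYOCD, at 4.82 FPKM in the 0.5% diet against 5.46 FPKM in the basal diet, and CALD1, with a log2 difference of -0.0022, were the 3 without a positive difference. The 5 without overlap were short, at 1122 to 2262 bases, and the 3 without a positive difference were long, at 6199 to 8820. SYNM, at 8074 bases, had a log2 difference of 0.11, and ACTA2, at 1353 bases, overlapped. Replicate 2 of the 0.5% diet was the library in which long genes were lowest. The part of gene length in this split was not tested. In bulk tissue, a larger share of smooth muscle cells and more RNA per cell cannot be told apart. The part of tissue makeup in the MYL9 values was not tested.

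MYL6, the essential light chain gene, had 9043, 8628 and 7319.99 FPKM in the basal diet, 9466, 12411 and 8736 FPKM at 0.5% succinate, 7009, 6419 and 5156 FPKM at 1%, and 8120.2, 7557 and 7934 FPKM at 2%. All 3 libraries at 1% lay below every library of the other diets, and the 2% libraries were close to each other. The mean at 1% was 6195 ± 947 FPKM against 8330.2 ± 899 FPKM in the basal diet (SD, n = 3 each). The log2 difference was -0.43 (SE 0.24, 95% interval -0.96 to 0.09, adjusted p 0.325 by limma), in a comparison where 17.8% of all genes did not overlap, 10.7% with 1% lower, and MYL6 was the 1 member that did not. With the length trend of each library removed, this difference was 0.09, so its direction did not hold. The largest difference between 2 doses among the 9 genes in absolute size was also that of MYL6, 1% against 0.5% succinate, at -0.72 (SE 0.24, unadjusted p 0.0113, adjusted p 0.166 by limma). Without replicate 1 of the 1% diet it was -0.81 with an adjusted p of 0.031 by limma. That fit kept only replicates 2 and 3 of the 1% diet, where long genes were higher relative to short ones. The share of all genes passing in it is not given here. With the length trend removed the difference was -0.21. Its adjusted p over all alternatives ran from 0.031 to 0.701.

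MYH11, the heavy chain gene, had 1919, 2533 and 2938 FPKM in the basal diet, 3411, 2368 and 3345 FPKM at 0.5% succinate, 2619, 4956 and 4379 FPKM at 1%, and 2785, 3360.3 and 2485 FPKM at 2%. The 2 highest libraries of the 12 were replicates 2 and 3 of the 1% diet, those with the length trend, and no pair of diets was free of overlap. The mean was 3985 ± 1217 FPKM at 1% against 2463 ± 513 FPKM in the basal diet (SD, n = 3 each). The log2 difference was 0.66 (SE 0.29, 95% interval 0.04 to 1.29), with an unadjusted p of 0.0397 and an adjusted p of 0.238 by limma. It passed without replicate 1 of the 1% diet, at 0.94 with an adjusted p of 0.0238 by limma, the lowest of any alternative. That fit kept only replicates 2 and 3 of the 1% diet. The share of all genes passing in it is not given here. Without replicates 2 and 3 the difference was 0.11. With the length trend removed it was 0.46.

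The kinase gene MYLK was the steadiest of the 9 over all libraries, with a coefficient of variation of 16.1%. It had 1308, 1129 and 1116 FPKM in the basal diet, 1322, 830.5 and 1645 FPKM at 0.5% succinate, 1323, 1304 and 1029 FPKM at 1%, and 1209, 1342 and 1269 FPKM at 2%. Both the lowest and the highest library of the 12 belonged to the 0.5% diet. The log2 differences from the basal diet were 0.04 (95% interval -0.49 to 0.58) at 0.5%, 0.04 (-0.50 to 0.57) at 1% and 0.11 (-0.43 to 0.65) at 2%, with adjusted p of 0.98, 0.949 and 0.999 by limma. With quantile normalization the difference at 1% was 0.66, and with the length trend removed it was -0.26.

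**Figure D3:**
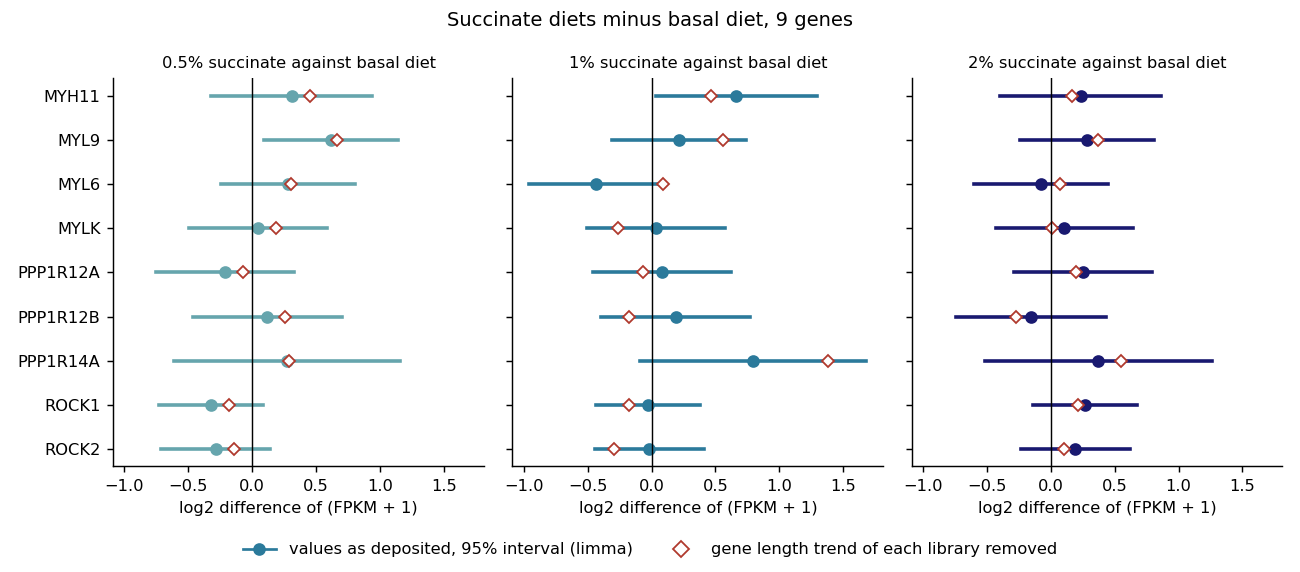
Log2 difference of (FPKM + 1) for each succinate diet minus the basal diet, with 95% limma intervals from the deposited values (filled points) and the estimate with each library's gene length trend removed (open diamonds). The intervals of MYL9 at 0.5% and of MYH11 at 1% lie above 0 before adjustment, and the MYL6 estimate at 1% moves across 0 when the length trend is removed.

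The phosphatase targeting subunits had coefficients of variation within a diet between 4.47% (basal diet) and 32.2% (0.5% succinate) for PPP1R12A and between 12.1% (2%) and 37.9% (1%) for PPP1R12B. PPP1R12A had 106, 105 and 114 FPKM in the basal diet, 116, 61.1 and 114 FPKM at 0.5% succinate, 143, 123 and 86.0 FPKM at 1%, and 114, 135 and 139 FPKM at 2%. The lowest value was replicate 2 of the 0.5% diet, the library in which long genes were lowest. The next lowest was replicate 3 of the 1% diet, where long genes were higher relative to short ones. With the length trend removed these were still the 2 lowest libraries, at 6.31 and 6.25 in log2(FPKM + 1). PPP1R12B, whose product is a second targeting subunit best known from heart, had 54.0, 80.9 and 73.4 FPKM in the basal diet, 88.4, 64.9 and 71.7 FPKM at 0.5%, 47.4, 93.5 and 107 FPKM at 1%, and 56.8, 70.3 and 57.9 FPKM at 2%. For both genes every pair of diets overlapped. Within the 1% diet the 2 genes took opposite orders: replicate 1 was highest for PPP1R12A and lowest for PPP1R12B, and replicate 3 the other way round.

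PPP1R14A had 1.68, 1.07 and 0.964 FPKM in the basal diet, 2.55, 0.929 and 1.80 FPKM at 0.5% succinate, 0.789, 4.23 and 5.06 FPKM at 1%, and 1.11, 3.04 and 1.76 FPKM at 2%. The lowest and the 2 highest libraries of all 12 belonged to the 1% diet, and the highest were its replicates 2 and 3. Although it is a short gene, it was high in those libraries that favoured long ones. The log2 difference at 1% against the basal diet was 0.79 (SE 0.41, 95% interval -0.09 to 1.68, adjusted p 0.296 by limma). Without replicate 1 of the 1% diet it was 1.35 with an adjusted p of 0.0127 by limma, the lowest of any alternative. That fit kept only replicates 2 and 3 of the 1% diet. The share of all genes passing in it is not given here. Without replicates 2 and 3 the difference was -0.31. It was 0.47 without replicate 3 alone and 1.38 with the length trend removed.

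In the deposited values the ROCK genes were both higher at 2% succinate than at 0.5% without overlap, though neither passed after adjustment. ROCK1 had 28.8, 23.2 and 30.3 FPKM in the basal diet, 24.1, 17.3 and 24.2 FPKM at 0.5% succinate, 31.9, 29.0 and 20.6 FPKM at 1%, and 32.6, 33.2 and 33.5 FPKM at 2%. The 3 libraries at 2% were above all 9 others in these values. With the length trend removed, replicate 1 of the 1% diet was at 5.023 in log2(FPKM + 1), just above replicate 2 of the 2% diet at 5.0216. The mean was 33.1 ± 0.464 FPKM at 2% against 27.5 ± 3.73 FPKM in the basal diet, a log2 difference of 0.27 (SE 0.19, adjusted p 0.999 by limma). ROCK1 was the 1 member free of overlap in that comparison, where 14.2% of all genes were, 7.43% with 2% higher. Without replicate 2 of the basal diet this difference was 0.16. The log2 difference of ROCK1 at 2% was 0.59 against the 0.5% diet (SE 0.19, 95% interval 0.19 to 1.00, unadjusted p 0.00778, adjusted p 0.723) and 0.30 against the 1% diet (SE 0.19, adjusted p 0.522), both by limma. The difference from the 1% diet was 0.12 without replicate 3 of that diet, and its lowest value over all alternatives was 0.05.

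ROCK2 had 15.1, 14.3 and 17.4 FPKM in the basal diet, 13.4, 9.21 and 15.9 FPKM at 0.5% succinate, 19.1, 14.8 and 12.7 FPKM at 1%, and 16.5, 19.0 and 18.3 FPKM at 2%. Its 2% and 0.5% libraries did not overlap in the deposited values. With the length trend removed they did, with replicate 3 of the 0.5% diet at 4.17 and replicate 1 of the 2% diet at 4.13 in log2(FPKM + 1). In the deposited values the log2 difference at 2% against 0.5% was 0.48 (SE 0.20, 95% interval 0.05 to 0.91, unadjusted p 0.0309, adjusted p 0.723 by limma). It was 0.27 without replicate 2 of the 0.5% diet. With the length trend removed it was 0.25 and that of ROCK1 was 0.40, while that of PPP1R12B was -0.53, against -0.27 (SE 0.27, adjusted p 0.784 by limma) in the deposited values. Without replicate 1 of the 0.5% diet the PPP1R12B difference was -0.15.

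Between the succinate doses, 0 of 9 members passed the limma test in any of the 3 comparisons (0% of all genes in each), with the lowest adjusted p at 0.166. At an unadjusted p under 0.05 there were 2 members at 2% against 0.5% (6.47% of all genes), 1 at 1% against 0.5% (20.2%) and 0 at 2% against 1% (10.1%), and limma-voom gave the same counts. Free of overlap were 3 of 9 members at 2% against 0.5% (MYL6, ROCK1 and ROCK2; 17.4% of all genes, 14.5% with 2% higher and 2.95% with 2% lower), 2 of 9 at 1% against 0.5% (MYL6 and MYL9, both lower at 1%; 15.5%, 5.45% with 1% lower) and 2 of 9 at 2% against 1% (MYL6 and ROCK1, both higher at 2%; 12.2%, 7.84% with 2% higher). In the first of these comparisons ROCK1 and ROCK2 were higher at 2% and MYL6 was lower. MYL9 at 1% against 0.5% had a log2 difference of -0.40 (SE 0.24, adjusted p 0.361), MYL6 at 2% against 0.5% -0.36 (SE 0.24, adjusted p 0.726), and MYL6 at 2% against 1% 0.36 (SE 0.24, adjusted p 0.543), all by limma. With quantile normalization the MYL9 difference was 0.05, and with the length trend removed the last MYL6 difference was -0.02, so their directions did not hold. MYL6 was at -0.21 for 2% against 0.5% without replicate 2 of the 0.5% diet, and at 0.23 for 2% against 1% without replicate 3 of the 1% diet.

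A ratio of 2 genes within a library does not depend on the library's total. 6 ratios were tested for any difference among the 4 diets by an exact permutation test over all 369600 assignments of the libraries. The 2 light chains gave the lowest p. MYL6 over MYL9 was 1.60, 1.10 and 1.30 in the basal diet, 0.928, 1.12 and 1.09 at 0.5% succinate, 1.01, 0.81 and 0.723 at 1%, and 0.971, 1.02 and 1.09 at 2%. The 3 basal libraries included the 2 highest values, and the 1% diet the 2 lowest. The exact permutation p was 0.0101, or 0.0608 adjusted over the 6 ratios, so the ratio did not pass. It passed without replicate 2 of the basal diet (adjusted p 0.0284) and without replicate 1 of the 1% diet (0.0238). With the length trend removed, the adjusted p was 0.118, and the highest of any alternative was 0.387.

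The other 5 ratios had exact permutation p from 0.0801 to 0.776. MYLK over PPP1R12A is an RNA ratio of the kinase gene to the gene of a targeting subunit of the opposing phosphatase. It averaged 10.97 ± 1.26 in the basal diet, 13.1 ± 1.60 at 0.5% succinate, 10.6 ± 1.35 at 1% and 9.89 ± 0.778 at 2% (SD, n = 3 each). Its exact permutation p was 0.0801, or 0.240 adjusted. All 3 libraries at 0.5% were above all 3 at 2%. Pairs of diets were not tested for ratios, and how often ratios separate in this way was not computed. ROCK1 over ROCK2 was the most constant of the 6 ratios, at 1.77 ± 0.144 over 12 libraries with a range of 1.52 to 1.97. MYH11 over MYL9 ranged from 0.214 to 0.625 and PPP1R12B over PPP1R12A from 0.332 to 1.25, the widest 2 among the ratios without PPP1R14A.

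**Figure D4:**
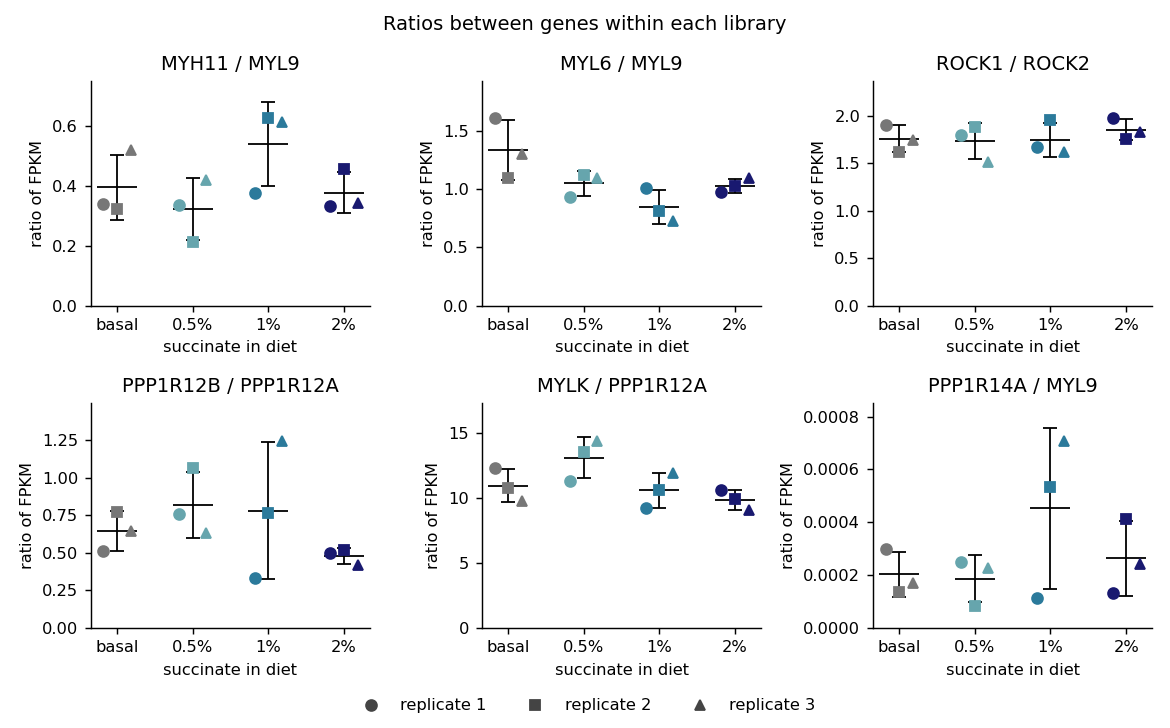
Ratio of FPKM between 2 genes in each library (points, shape by replicate number) by diet, with the mean and SD of 3 libraries in black; axes start at 0. MYL6 over MYL9 is highest in the basal diet and lowest at 1% succinate, and ROCK1 over ROCK2 stays between 1.52 and 1.97 in all 12 libraries.

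Correlations between members across the 12 libraries describe log2(FPKM + 1) in libraries that share their diets and their length trends, and they are given without a test. ROCK1 and ROCK2 had a Pearson r of 0.92 (Spearman 0.90), PPP1R12A and ROCK2 0.93 (Spearman 0.77), PPP1R12A and ROCK1 0.88 (Spearman 0.76), and MYLK and PPP1R12A 0.78 (Spearman 0.70). Without the 2 libraries farthest from the median of the first gene, these 4 values were 0.81, 0.74, 0.65 and 0.77, and without replicates 2 and 3 of the 1% diet they were 0.93, 0.94, 0.86 and 0.75. MYH11 went with PPP1R12B (r 0.78, Spearman 0.74) and with PPP1R14A (r 0.78, Spearman 0.73), and these values were 0.58 and 0.46 without those 2 libraries of the 1% diet. With the length trend removed they were 0.49 and 0.70, or 0.56 and 0.40 without the same 2 libraries. MYLK and PPP1R12A had 0.64 with the trend removed, or 0.38 without the same 2 libraries.

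The heavy chain and its light chains did not vary together in the deposited values. MYH11 and MYL9 had a Pearson r of 0.16 (Spearman 0.14), or 0.30 without the 2 libraries farthest from the MYH11 median, and MYH11 and MYL6 had -0.63 (Spearman -0.53), or -0.26. Beside this stands the length trend, with which MYH11 had a Pearson r of 0.83 over the libraries and MYL6 -0.87. After a smooth curve on gene length was subtracted from each library, MYH11 and MYL9 had 0.82 (Spearman 0.81) and MYH11 and MYL6 0.67 (Spearman 0.52). Without replicates 2 and 3 of the 1% diet these were 0.78 and 0.72. MYL9 and MYL6, both short, had 0.52 before and 0.73 after.

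**Figure D5:**
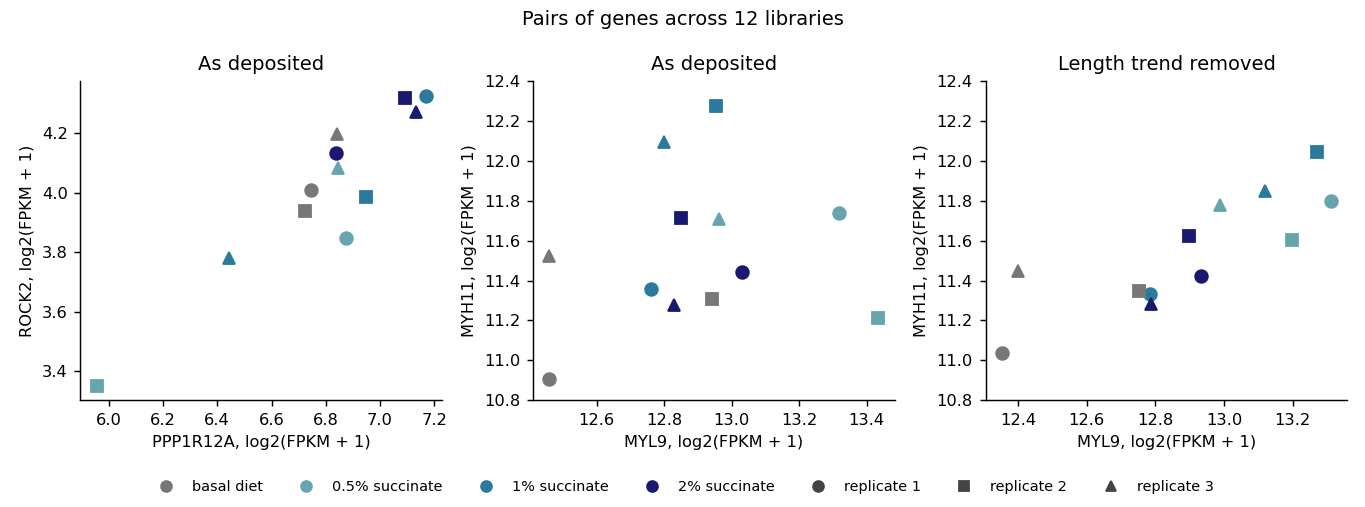
Log2(FPKM + 1) of 2 genes in each of the 12 libraries, coloured by diet and shaped by replicate number: PPP1R12A against ROCK2 as deposited, MYL9 against MYH11 as deposited, and MYL9 against MYH11 with each library's gene length trend removed. The Pearson r is 0.93 in the first panel, 0.16 in the second and 0.82 in the third.

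The genes whose pattern over the 12 libraries was most like that of a member were, for MYH11, CASTOR2, CHAF1A, SLX4, FAM168A and SLC41A1, with Pearson r from 0.971 to 0.941. These are genes of 1.45 to 8.60 FPKM and 3837 to 7060 bases. Without replicates 2 and 3 of the 1% diet their r with MYH11 was 0.874 to 0.924. MYH11 itself had a Pearson r of 0.83 with the length trend of the libraries, and the search was not repeated with that trend removed. For MYL9 they were NAB2, BORCS5, ACTG1, FBXW5 and ACTA1, with r from 0.874 to 0.845, of which ACTG1 and ACTA1 encode actins. For ROCK1 they were SLF2, KIF5B, TAB2, ZHX1 and EFR3A, with r from 0.960 to 0.942. None of the 9 members was among the 5 genes nearest to MYH11, MYL9 or ROCK1, the 3 for which this was computed.

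Of the other genes of the pathway, none passed in any comparison by limma, among 3 non-muscle myosin genes, 3 striated myosin genes, 14 genes for calmodulin and other kinases of the light chain or its phosphatase, 6 other phosphatase subunits and inhibitors, and 12 genes acting upstream of ROCK. An unadjusted p under 0.05 against the basal diet was found at 0.5% succinate for 2 of 14 genes of the calmodulin and kinase list and 0 in the other lists (4.65% of all genes). At 1% it was found for 2 of that list and 2 of 12 upstream of ROCK (19.4%), and at 2% for 1 of 6 phosphatase genes (3.17%). Between doses, at 1% against 0.5% these counts were 5 of 14 in the kinase list, 4 of 12 upstream of ROCK and 1 of 6 phosphatase genes (20.2%). They were 4, 1 and 1 at 2% against 0.5% (6.47%), and 2, 0 and 3 at 2% against 1% (10.1%). For any difference among the 4 diets they were 5, 2 and 2 (12.6%). The median log2 difference at 1% was 0.09 for the kinase list, 0.09 for the list upstream of ROCK and -0.26 for the phosphatase list, against -0.04 for all genes and 0.08 for the 9 members.

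The catalytic subunit gene PPP1CB averaged 172 ± 19.4 FPKM in the basal diet, 151 ± 32.7 at 0.5% succinate, 137 ± 46.6 at 1% and 192 ± 19.0 at 2% (SD, n = 3 each). The 2% diet was highest, as for ROCK1. RHOA, also highest at 2%, averaged 189 ± 16.1, 188 ± 8.81, 176 ± 27.6 and 221 ± 24.7 FPKM in the same diets. CALM2 averaged 766 ± 63.9 FPKM in the basal diet, 721 ± 16.1 at 0.5%, 563 ± 168 at 1% and 791 ± 145 at 2%. MYH9, the non-muscle heavy chain, averaged 17.1 ± 5.07, 17.0 ± 3.96, 27.5 ± 10.2 and 18.6 ± 2.78 FPKM, highest at 1% like MYH11. MYH9 is long, at 15208 bases, and long genes were higher in replicates 2 and 3 of the 1% diet. Its log2 difference at 1% against the basal diet was 0.62 (adjusted p 0.265 by limma). At 2% against the basal diet, PPP1CB was at 0.16 and RHOA at 0.22 (adjusted p 0.999 for each by limma). The part of the length trend in these orders of diets was not tested.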

How the data were processed

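RNA was sequenced from 12 libraries of Tan sheep, 3 per diet. According to the submitters' processing notes, cutadapt 1.15, HISAT2 2.1.0 and HTSeq 0.9.1 were used; the genome build, the annotation and the strand setting are not given in the sources used here. The deposited values are FPKM per gene and library, made by the authors, per the file headers. Multiplied by gene length they gave whole reads for 100% of values, within 0.01 of a read, and these reads gave the depth of each library, 15489883 to 18717309. Floors on reads cover counting error alone.

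A RefSeq table (assembly ARS-UI_Ramb_v3.0) held 98.2% of the IDs; it gave names to LOC entries and chromosome names, while positions are the file's. Values were analysed as log2(FPKM + 1), a scale that shrinks the differences of scarce genes such as PPP1R14A. A minimum of 1 FPKM in 3 or more libraries left 12095 genes, fitted over all 12 libraries with limma 3.58.1 (R 4.3.3), with an intensity trend and robust moderation. A threshold of 0.05 was applied after Benjamini-Hochberg adjustment over all genes tested. The fit was tested on simulated data. Ratios were tested by exact permutation over the 4 diets, since 3 libraries against 3 cannot go below a p of 0.1. The length trend was removed as a lowess curve (span 0.3) of each library's deviations on log2 gene length.

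All 9 members are named whatever their p. Of each of 5 pathway lists the 3 genes with the highest mean were to be named, and for MYH11, MYL9 and ROCK1 the 5 genes with the highest Pearson r. Other genes were named after their values were seen. 1 listed gene is not reported here and was left out of its list. The members and lists were chosen with earlier results of these data known. No 2 libraries were copies: the lowest chi-square per gene over 66 pairs was 20.8.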

Additional observations from a re-analysis of the deposited data

How the results depend on the processing

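None of the 9 members passed in 20 of the 21 alternatives tried. These were a pseudocount of 0.1, no filter, median-ratio scaling, quantile normalization, removal of the length trend, a replicate block, limma-voom, fits of only the compared diets, leaving out each library in turn, and leaving out replicates 2 and 3 of the 1% diet. The exception was the fit without replicate 1 of the 1% diet, with 2 members at 1% against the basal diet (MYH11 and PPP1R14A), 2 at 1% against 0.5% (MYL6 and PPP1R14A) and 1 at 2% against 1% (PPP1R12B). With any 1 library left out, the count thus ranged from 0 to 2 in the first pair of comparisons and from 0 to 1 in the last, and it stayed 0 in the others. The fit without replicate 1 of the 1% diet kept replicates 2 and 3, where long genes were higher relative to short ones. The share of all genes that passed in this fit is not given here, so these counts have no background beside them.

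Deviations of same-numbered libraries correlated between -0.334 and 0.258, with 5 of 18 pairs above 0.1. For libraries of different diets and different numbers the range was -0.267 to 0.259, with 10 of 36 pairs above 0.1. Same-numbered libraries were thus no more alike than the others. With so few libraries per diet, these correlations cannot exclude that the replicate numbers pair the libraries. Fits of only the compared diets do not exist for the test of any difference or the slope. The replicate block left the count of members at 0 in all 8 comparisons, and under it the MYL6 to MYL9 ratio had an exact permutation p of 0.0469 (adjusted 0.281).

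The largest difference between diet means of log2(MYL6/MYL9) was 0.65, and 0.51 to 0.78 with any 1 library left out.

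Of 63 differences and slopes of the 9 members, 46 kept their sign without any 1 library and 30 kept it in all alternatives. Among those printed, the sign changed for MYL9 at 1% against 0.5% with quantile normalization (0.045), for MYL6 with the length trend removed at 1% against the basal diet (0.094) and at 2% against 1% (-0.017), for MYLK at 1% against the basal diet with the length trend removed (-0.26), and for PPP1R14A at 1% without replicates 2 and 3 of that diet (-0.31). With 1 library left out, MYLK ranged from -0.17 to 0.32 at 0.5% and from -0.028 to 0.15 at 1%. The cause was not tested. Depth limits PPP1R14A, at 8 to 49 reads.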

Other observations

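With the gene length trend of each library removed, the 3 motor genes had a positive log2 difference from the basal diet at every succinate dose: MYL9 at 0.66, 0.56 and 0.37, MYH11 at 0.45, 0.46 and 0.16, and MYL6 at 0.30, 0.09 and 0.08, at 0.5%, 1% and 2%. This pattern was picked after its values were seen, and the share of all genes with it was not computed. The 3 comparisons share the basal libraries. By limma none of these 9 values passed after adjustment, and the lowest adjusted p was 0.385, for MYL9 at 1%. In the deposited values MYL6 was negative at 1% and 2%.

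PPP1R12B ran opposite to ROCK1 and ROCK2 once the length trend was removed, with a Pearson r of -0.76 with ROCK1 (Spearman -0.90) and -0.62 with ROCK2 (Spearman -0.69) over 12 libraries. The values were -0.89 and -0.85 without replicates 2 and 3 of the 1% diet. In the deposited values they were -0.47 and -0.39. PPP1R12A, the other targeting subunit, was at 0.83 with each of them. These pairs were picked after their values were seen, and no test was made.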
